A study of Mus musculus with 11 samples.

Results

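RNA from isolated mouse glomeruli, the filtering units of the kidney, was examined for 35 genes of a neighbouring part of the nephron, the proximal tubule. The genes were chosen by name as proximal tubule transporters, enzymes, receptors and regulators, by a rule that uses no measured value. Earlier results of these data were known when the genes were chosen. All 35 were measured, of 13734 genes in all, and all 35 entered every test. The 11 RNA sequencing libraries formed 3 groups. Male db/db mice, homozygous for the db mutation of the leptin receptor gene, become obese and diabetic. Some were treated with puerarin, an isoflavone glycoside of kudzu root, in the group called db/db puerarin (3 libraries). The other db/db mice received the solvent alone (db/db vehicle, 4 libraries), and heterozygous db/m littermates, the non-diabetic controls, also received the solvent (db/m vehicle, 4 libraries). Every mouse was thus gavaged with 5% DMSO, with puerarin at 20 mg per kg body weight per day or without it, from 10 weeks of age for 6 weeks. The labels put the db/db mice, bought at 8 weeks of age, on the BKS background, while the strain field of every library reads C57BL/6J. They name 2 sequencing sites and assign no library to either.

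Library titles came in 2 forms, which are called name forms here: an S-number (S144, S152, S153, S184 and S185) or a group tag with a number (1, 2 or 3). Both forms occurred in each group, 6 group-tag libraries and 5 S-number libraries in all, and what they stand for is not given in the labels. Nor do the labels tell whether a library stands for an animal or for pooled animals, so every p-value measures the spread between these libraries only. Counts over transcripts totalled 35369703 to 44244460 per library. The mice are labelled male, but db/db puerarin 2 and 3 went against that label. Xist, made by the inactive X chromosome of females, stood at 528.5 and 819 CPM in them, against 0.519 to 6.47 CPM in the other 9 libraries. Ddx3y, on the Y chromosome, stood at 3.06 and 0.909 CPM in this pair and at 50.3 to 85.2 CPM in the others. CPM are counts scaled to the size of the library, here with TMM (trimmed mean of M values) factors. Counts of called genes, and fitted values of the genes set apart by these 2 libraries, are given with and without them. The test of a difference between the name forms of the libraries is given with all 11 only.

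The proximal tubule takes back most of the filtered sodium, glucose, phosphate, amino acids and protein, and it makes glucose, activates vitamin D and clears organic acids. Its early, convoluted part carries most of the glucose, phosphate and neutral amino acid uptake, while the late, straight part is richer in drug and fatty acid enzymes. In mice, many enzymes and transporters of the straight part are higher in males than in females, under control of androgens. The nuclear receptor HNF4A maintains the transcription of many of these genes.

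The preparations carried the markers of glomeruli in every library, and proximal tubule RNA beside them. The 12 podocyte genes summed to 13064.3 to 19099.3 CPM. The 35 proximal tubule genes summed to 3376, 4516 and 4649 CPM in db/db puerarin S144, 2 and 3. They summed to 5460.5, 6993, 2329.5 and 9306 CPM in db/db vehicle S152, S153, 1 and 3, and to 13418, 5148, 2997 and 4449 CPM in db/m vehicle S184, S185, 2 and 3. The lowest library, db/db vehicle 1, and the highest, db/m vehicle S184, thus differed 5.76-fold for the sum, and 4.69-fold without Kap, the kidney androgen-regulated protein, whose counts are the most uneven of the list. Over the same libraries the podocyte sum varied 1.46-fold, the glomerular endothelial sum 2.08-fold and the mesangial sum 2.18-fold. The sum of the loop and distal tubule varied 5.47-fold and that of the collecting duct 8.86-fold. The extremes both lay in vehicle groups, and all 3 groups overlapped. Means were 4180 ± 699.6 CPM in db/db puerarin (SD, n = 3), 6022 ± 2926 CPM in db/db vehicle (SD, n = 4) and 6503 ± 4696 CPM in db/m vehicle (SD, n = 4). In bulk RNA, fewer proximal tubule cells in a preparation and less RNA per cell cannot be told apart.

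**Figure D1:**
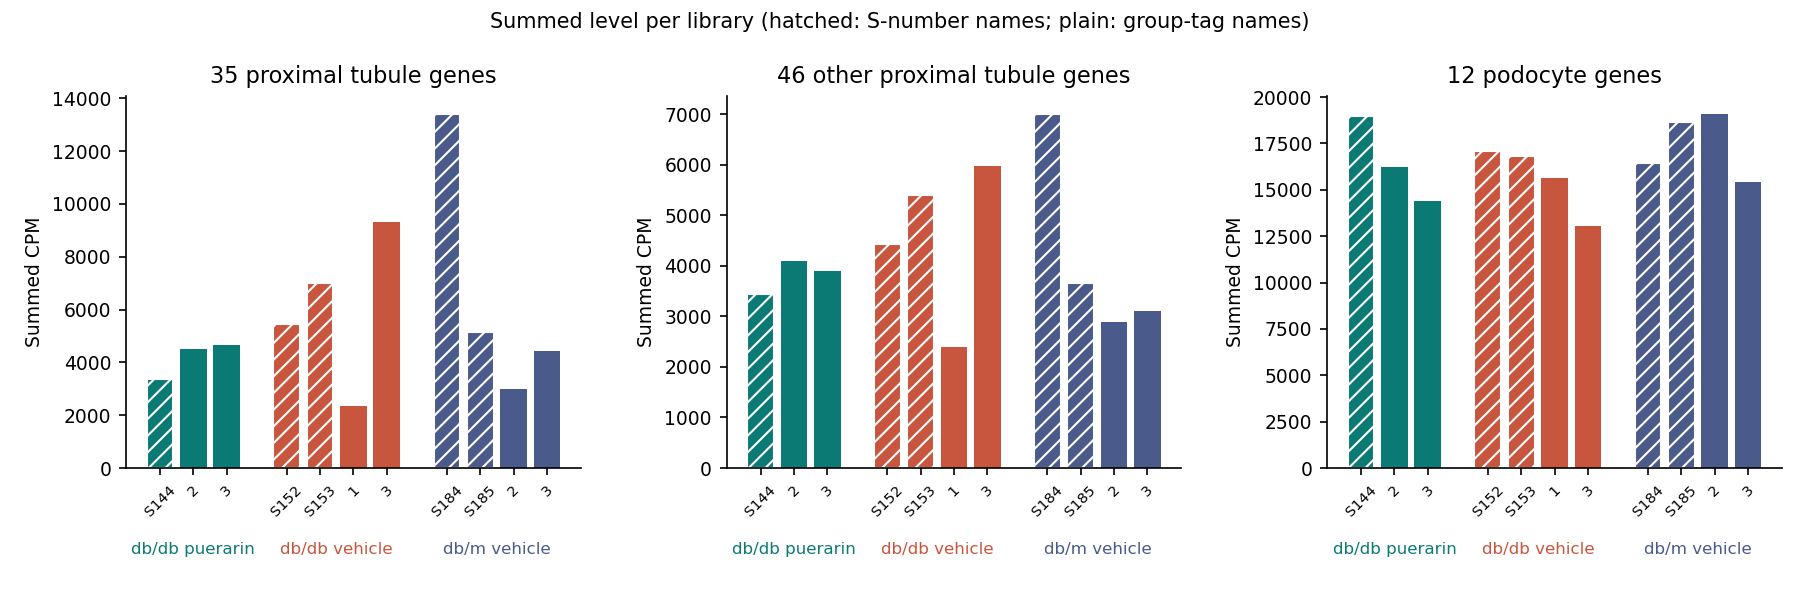
Summed CPM in each of the 11 libraries for the 35 proximal tubule genes, 46 other proximal tubule genes and 12 podocyte genes. The 35 genes run from 2329.5 CPM in db/db vehicle 1 to 13418 CPM in db/m vehicle S184, the 46 others peak and dip in the same libraries, and the podocyte sum stays between 13064.3 and 19099.3 CPM.

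The genes moved between libraries as a block. All 35 were higher in db/m vehicle S184 than in db/m vehicle S185, although both are the same group and name form, with a median ratio of 2.75 (1.36 for Cyp4b1 to 4.74 for Gsta2). All 35 were also higher in db/db vehicle 3 than in db/db vehicle 1, with a median ratio of 4.81 (1.16 for Cndp2 to 6.52 for Ass1). Over all genes the median log2 difference was -0.01 in the first pair and 0.00 in the second. Across the 11 libraries, db/m vehicle S184 was the highest for 27 genes, db/db vehicle 3 for 7 and db/db vehicle S153 for 1 (G6pc). These first 2 libraries were the 2 highest for 24 of 35 genes. At the other end, db/db vehicle 1 was the lowest for 18 genes, db/m vehicle 2 for 8, db/db puerarin 3 for 5, db/m vehicle S185 for 3 and db/db puerarin S144 for 1. Within a pair of one group and form the median ratio was closest to 1 for db/db puerarin 3 over db/db puerarin 2, where the first was higher for 21 of 35 genes with a median ratio of 1.05.

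A second list, 46 further proximal tubule genes with no gene in common with the 35 (among them the anion transporters Slc22a6 and Slc22a8, the glucose carrier Slc2a2 and the fructose enzyme Khk), had the same extremes. It summed to 3453, 4096 and 3894 CPM in the db/db puerarin libraries S144, 2 and 3. In db/db vehicle S152, S153, 1 and 3 it summed to 4443, 5400.1, 2386 and 5980.0 CPM. In db/m vehicle S184, S185, 2 and 3 it summed to 7015, 3662, 2895 and 3103.5 CPM. As for the 35 genes, db/m vehicle S184 was the highest library and db/db vehicle 1 the lowest.

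**Figure D2:**
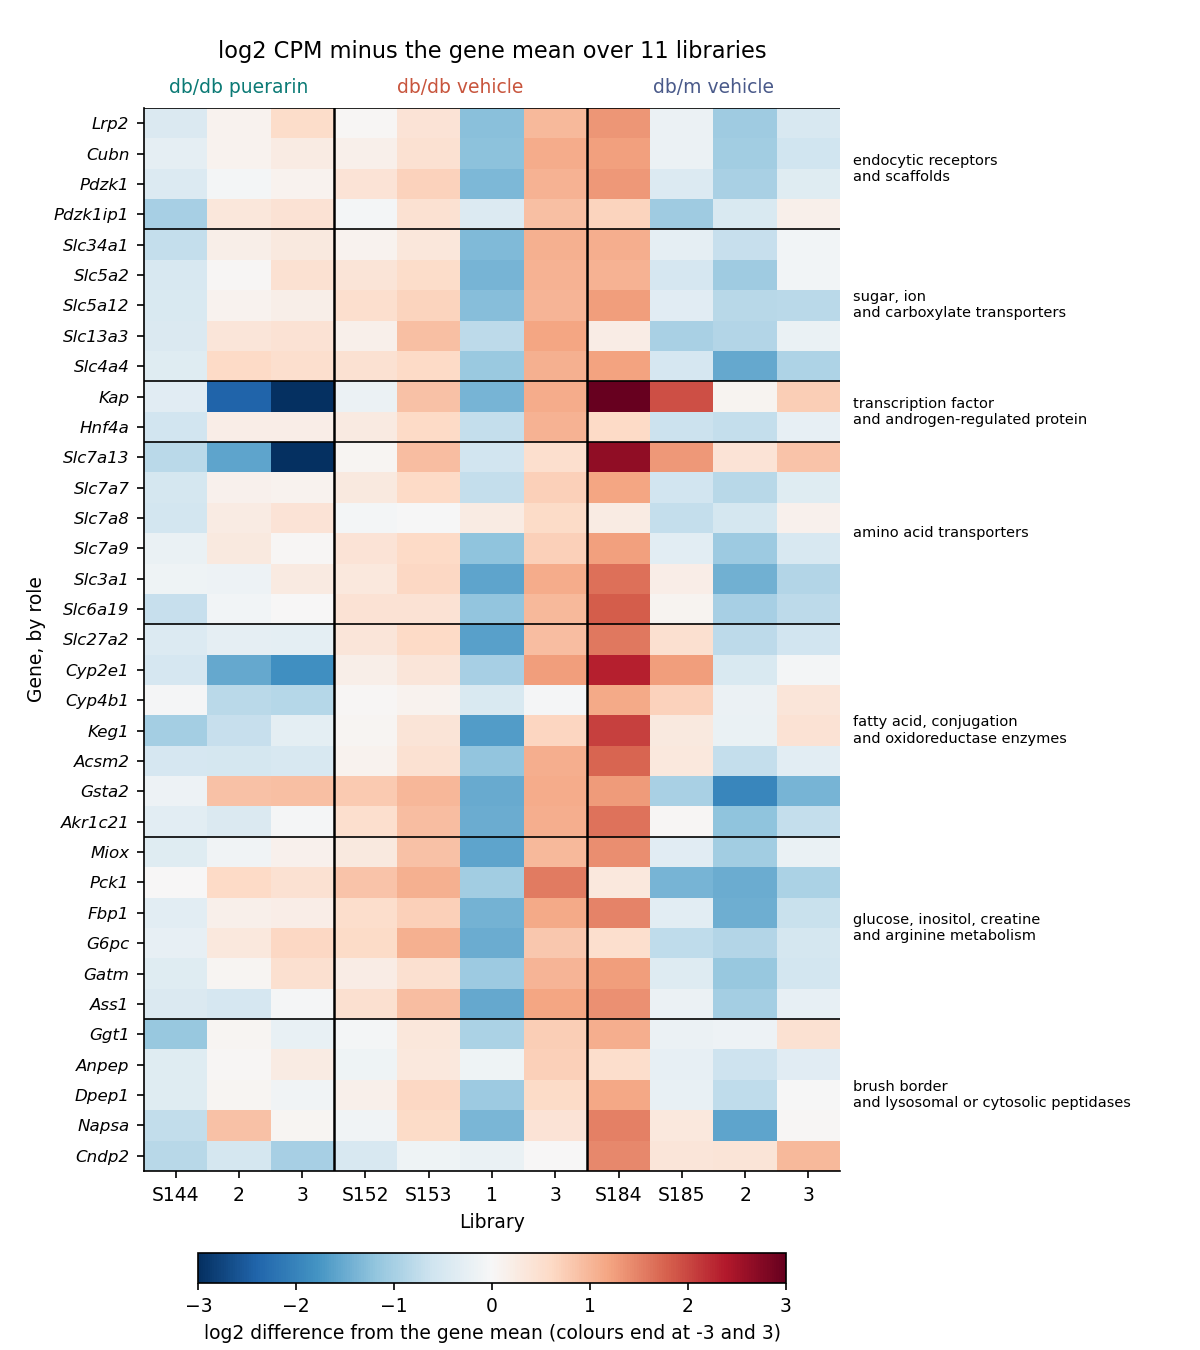
The 35 genes (rows, by role) in the 11 libraries (columns), coloured by log2 CPM minus the gene's mean over the libraries. Columns db/m vehicle S184 and db/db vehicle 3 are high and db/db vehicle 1 is low for most genes, while Kap, Slc7a13 and Cyp2e1 are lowest in db/db puerarin 3.

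The sequence before the starts of the genes was searched on either strand for CAAAGTCCA, a site of HNF4A, itself the product of one of the 35 genes. RefSeq windows of 300 bases (250 before the start to 50 after it, build GRCm38.p6) were matched for 30 of the 35 genes, not for Slc5a2, Slc5a12, Slc7a13, Napsa and Cndp2. The site was in windows of 2 of these 30 genes (6.67%), Slc3a1 and Pdzk1. Counted by window, it was in 2 of 42 windows of these genes (4.76%) and in 0.475% of all 32851 windows. The 250 bases before the start of Slc3a1, a subunit of the cystine transporter, are shown with the site in capitals (chr17:85028097-85028346, plus strand), since there the match lies wholly before the start and begins 39 bases from it. Another motif was planned as well and is not reported here. A match of letters is a description and shows no binding.
Slc3a1: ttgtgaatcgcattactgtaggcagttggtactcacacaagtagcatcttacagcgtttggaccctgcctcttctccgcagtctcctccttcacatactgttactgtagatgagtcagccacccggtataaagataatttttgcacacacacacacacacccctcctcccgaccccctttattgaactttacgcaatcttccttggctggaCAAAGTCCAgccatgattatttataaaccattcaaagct

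Endocytic receptors and their scaffolds showed the block pattern plainly. Lrp2 encodes megalin, the receptor that takes up filtered protein. It was at 69.0, 99.8 and 137 CPM in db/db puerarin S144, 2 and 3, at 94.9, 124, 39.0 and 182.5 CPM in db/db vehicle S152, S153, 1 and 3, and at 233, 82.1, 44.7 and 67.1 CPM in db/m vehicle S184, S185, 2 and 3. Cubn, its partner cubilin, was at 21.9, 28.4 and 31.4 CPM in db/db puerarin, at 29.3, 36.1, 11.2 and 56.9 CPM in db/db vehicle, and at 61.9, 23.5, 12.9 and 17.5 CPM in db/m vehicle, in the same order of libraries, which is kept below. For both, db/m vehicle S184 was the highest library and db/db vehicle 1 the lowest, and the groups overlapped. Pdzk1ip1, a small membrane protein that binds the scaffold PDZK1, was at 151, 382 and 405 CPM in db/db puerarin, at 291, 414, 227 and 567 CPM in db/db vehicle, and at 480.1, 145, 219 and 334.5 CPM in db/m vehicle. Its highest library was db/db vehicle 3. Pdzk1 itself, which anchors transporters in the brush border, spanned 68.3 to 429.5 CPM over the 11 libraries.

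Among the sugar, ion and carboxylate transporters, Slc34a1, the sodium phosphate cotransporter of the brush border, was the most abundant per length. It was at 311, 577 and 625 CPM in db/db puerarin, at 551, 641, 203 and 1067.5 CPM in db/db vehicle, and at 1087, 426, 315 and 479 CPM in db/m vehicle. Slc5a2, the glucose cotransporter SGLT2, was at 57.3, 82.4 and 111 CPM in db/db puerarin, at 104, 118, 30.5 and 166 CPM in db/db vehicle, and at 164, 56.4, 37.9 and 75.3 CPM in db/m vehicle. For both, db/db vehicle 3 and db/m vehicle S184 were nearly level at the top. Slc13a3, the basolateral dicarboxylate transporter, was at 55.6, 96.8 and 102 CPM in db/db puerarin, at 83.7, 140.4, 43.3 and 169 CPM in db/db vehicle, and at 87.2, 38.4, 40.8 and 64.9 CPM in db/m vehicle. Slc4a4, which returns bicarbonate to the blood with sodium, was at 173.5, 341 and 319.8 CPM in db/db puerarin, at 305.5, 340.5, 104 and 469.5 CPM in db/db vehicle, and at 519.6, 158, 76.9 and 119 CPM in db/m vehicle. The lactate transporter Slc5a12 spanned 47.9 to 279 CPM. The groups overlapped for all 5 genes.

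The amino acid transporters held a very wide range and the narrowest one. Slc7a13, a transporter of acidic amino acids and cystine in the straight part, was at 9.38, 5.47 and 1.19 CPM in db/db puerarin, at 16.9, 31.0, 11.03 and 23.0 CPM in db/db vehicle, and at 103, 40.4, 21.6 and 29.6 CPM in db/m vehicle. Every db/db puerarin library was below every library of both vehicle groups. Slc7a8, a basolateral exchanger of neutral amino acids, was at 38.0, 66.3 and 74.3 CPM in db/db puerarin, at 53.1, 55.2, 66.4 and 83.0 CPM in db/db vehicle, and at 66.1, 33.9, 38.4 and 61.0 CPM in db/m vehicle. Its extremes differed 2.45-fold, the smallest ratio of the 35 genes, against 85.9-fold for Slc7a13. Slc7a9 and Slc3a1, the subunits of the cystine transporter, spanned 15.8 to 85.5 and 3.28 to 31.0 CPM. Slc6a19, which takes up neutral amino acids from the filtrate, spanned 11.8 to 94.7 CPM, and the basolateral Slc7a7 spanned 41.2 to 167 CPM.

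Genes of glucose, inositol, creatine and arginine metabolism included Pck1, whose mean CPM was higher in both db/db groups than in db/m vehicle. Pck1, phosphoenolpyruvate carboxykinase of glucose synthesis, was at 274, 412 and 373 CPM in db/db puerarin, at 494, 576, 132 and 808 CPM in db/db vehicle, and at 342, 105, 98.3 and 143 CPM in db/m vehicle. The groups overlapped, as db/m vehicle S184 lay above db/db puerarin S144 and db/db vehicle 1, and db/db vehicle 1 lay below db/m vehicle 3. G6pc, glucose-6-phosphatase, the last step of glucose synthesis, was at 50.4, 75.4 and 93.2 CPM in db/db puerarin, at 89.5, 127, 21.5 and 105 CPM in db/db vehicle, and at 85.8, 35.7, 32.6 and 41.6 CPM in db/m vehicle. Miox, which opens the ring of myo-inositol, was at 91.96, 109.7 and 130.3 CPM in db/db puerarin, at 146, 217, 39.5 and 234 CPM in db/db vehicle, and at 312, 93.4, 57.4 and 104 CPM in db/m vehicle. All groups overlapped for these 3 genes. Fbp1, another enzyme of glucose synthesis, spanned 23.7 to 183.8 CPM, the creatine enzyme Gatm 38.5 to 203 CPM and the arginine enzyme Ass1 50.1 to 375 CPM.

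Enzymes of fatty acids, conjugation and oxidation held several of the genes that stood apart from the block. Cyp2e1, a cytochrome P450, was at 22.6, 10.99 and 9.01 CPM in db/db puerarin, at 36.2, 40.9, 16.0 and 76.8 CPM in db/db vehicle, and at 162, 76.2, 23.2 and 30.9 CPM in db/m vehicle. Cyp4b1, a P450 of the fatty acid hydroxylase family, was at 239, 141 and 135 CPM in db/db puerarin, at 252, 265, 179 and 240.1 CPM in db/db vehicle, and at 543, 398, 218 and 318 CPM in db/m vehicle. For both, db/db puerarin 2 and 3 were the lowest of the 11 libraries. Gsta2, a glutathione transferase, was at 14.5, 29.4 and 30.0 CPM in db/db puerarin, at 27.8, 32.3, 5.62 and 35.1 CPM in db/db vehicle, and at 39.05, 8.25, 4.17 and 6.12 CPM in db/m vehicle. It has a near-identical neighbour, Gsta1, and the labels do not say how reads fitting both were assigned, so its values are uncertain. Keg1, a gene of the glycine acyltransferase family, averaged 30.9 ± 7.74 CPM in db/db puerarin (SD, n = 3), 50.5 ± 25.8 CPM in db/db vehicle (SD, n = 4) and 91.3 ± 72.6 CPM in db/m vehicle (SD, n = 4). The acyl-CoA synthetase Acsm2 spanned 278 to 2104 CPM, the fatty acid transporter Slc27a2 45.6 to 423 CPM and the aldo-keto reductase Akr1c21 26.3 to 228 CPM.

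Peptidases were represented by a cytosolic, a lysosomal and several brush border enzymes. Cndp2, a cytosolic dipeptidase, was at 103, 127 and 91.7 CPM in db/db puerarin, at 131, 168, 159.7 and 185.3 CPM in db/db vehicle, and at 497, 238, 239 and 361 CPM in db/m vehicle. Every db/db puerarin library was below every db/db vehicle library, and every db/db vehicle library below every db/m vehicle library. Ggt1, gamma-glutamyltransferase of the brush border, was at 55.2, 127 and 104 CPM in db/db puerarin, at 116, 63.0 and 202.5 CPM in db/db vehicle S152, 1 and 3 with S153 between S152 and 3, and at 256, 108, 109 and 166 CPM in db/m vehicle. Napsa, an aspartic protease of lysosomes, was at 20.0, 60.9 and 34.7 CPM in db/db puerarin, at 30.9, 49.5, 12.8 and 43.9 CPM in db/db vehicle, and at 94.8, 41.2, 11.1 and 33.9 CPM in db/m vehicle. The groups overlapped for Ggt1 and Napsa. The aminopeptidase Anpep and the dipeptidase Dpep1 were low throughout, spanning 9.21 to 23.6 and 7.41 to 35.2 CPM.

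The last pair were a regulator and an androgen target. Hnf4a, the nuclear receptor of this segment, was at 175, 302 and 301 CPM in db/db puerarin, at 319, 399, 159.7 and 545 CPM in db/db vehicle, and at 395, 167.5, 160.2 and 222 CPM in db/m vehicle. It varied 3.42-fold and the groups overlapped. Kap, the kidney androgen-regulated protein, was at 237, 56.7 and 22.7 CPM in db/db puerarin, at 265, 559, 115 and 652.5 CPM in db/db vehicle, and at 3031, 1150.2, 317.5 and 506 CPM in db/m vehicle. Its extremes differed 133-fold, more than those of any other gene of the list. On the build mm10, the counted transcript of Kap lies at chr6:133849855-133853667, that of Slc7a13 at chr4:19818727-19842213, that of Pck1 at chr2:173153073-173159253 and that of Keg1 at chr19:12695790-12719896. Per kilobase of the most abundant transcript of each gene, Kap had the highest level of the 35 genes, with a mean of 1650 CPM per kb and an SD of 2245 over the 11 libraries. Slc34a1 followed at 297 ± 147.5, Cyp4b1 at 228 ± 100.5, Miox at 213 ± 125 and Pck1 at 209 ± 137 CPM per kb (SD, n = 11). These SDs hold the movement that the genes shared between libraries, and the order of the genes within libraries was not tested. The lowest levels per length were those of Cubn at 4.26 ± 2.30, Anpep at 6.95 ± 2.04, Slc3a1 at 8.35 ± 5.61 and Lrp2 at 11.04 ± 6.08 CPM per kb (SD, n = 11).

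What the diabetic genotype changed was addressed by db/db vehicle against db/m vehicle. No gene of the 35 passed the test, and the fitted differences had either sign, which for some genes turned with 1 library left out. Values were positive for receptors, ion transporters and enzymes of glucose synthesis. They were negative for the dipeptidase Cndp2 and for Kap, Slc7a13, Keg1 and Cyp4b1, among others. The test was the quasi-likelihood test of edgeR, fitted to the counts with terms for group and for name form over all 11 libraries, and a gene passed under a Benjamini-Hochberg adjusted p of 0.05 over all 13734 genes. By this rule 0 of 35 genes were called, against 0.0437% of all genes, while 4 of the 35 had an unadjusted p under 0.05, against 10.3% of all genes. DESeq2 called 2, Cndp2 and Cyp4b1, both lower in db/db vehicle, against 2.11% of all genes in either direction and 1.02% lower. By limma on the authors' log2 values 0 were called, against 3 higher and 10 lower of all genes. Without db/db puerarin 2 and 3, which enter this fit only through its spread and name form terms, edgeR called 0 of the 35, against 0.0146% of all genes, with 4 of the 35 and 10.1% of all genes under an unadjusted p of 0.05. DESeq2 then called 1, Cndp2, against 2.04% of all genes. The median log2 fold change of the 35 was 0.27 (26 positive, 9 negative), against 0.02 over all genes tested. A log2 fold change of 1 is a doubling, and positive values mean higher in db/db vehicle. All 6 metabolic genes, all 5 sugar, ion and carboxylate transporters and all 4 endocytic genes had positive values, with medians of 0.43, 0.45 and 0.32, while the 5 peptidases had a median of -0.26. Of the 46 other proximal tubule genes edgeR called 0, with 1 under an unadjusted p of 0.05, and the median was 0.27, the same as for the 35.

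The gene nearest to the threshold was Cndp2. It differed by -1.05 on the log2 scale (SE 0.24, the standard error, edgeR adjusted p = 0.155), with -0.77 within the group-tag and -1.21 within the S-number libraries. It was also the 1 gene of the 35 whose 4 db/db vehicle libraries all lay below the 4 db/m vehicle libraries, against 4.96% of all genes separated in either direction and 2.48% in this one. Cyp4b1 had -0.60 (SE 0.17, edgeR adjusted p = 0.238), Slc7a13 -1.07 (SE 0.47, edgeR adjusted p = 0.475) and Kap -1.08 (SE 0.70, edgeR adjusted p = 0.645). On the positive side Pck1 had 1.58 (SE 0.53, edgeR adjusted p = 0.3355), Slc13a3 0.91 (SE 0.42, edgeR adjusted p = 0.497) and G6pc 0.80 (SE 0.47, edgeR adjusted p = 0.614). The median of the 35 turned with 1 library: it was -0.29 with db/db vehicle 3 left out and 0.88 with db/m vehicle S184 left out. Within the group-tag libraries 29 of 35 genes were positive (median 0.52), and within the S-number libraries 16 were (median -0.09). A test of that difference between the forms called 0 of the 35 genes, against 0.0218% of all genes.

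Whether puerarin changed these genes was addressed by db/db puerarin against db/db vehicle. None passed, and 3 genes known to be higher in male mouse kidney had the most negative values. edgeR called 0 of 35 and 0% of all genes, and the smallest adjusted p among the 35 was 0.967. An unadjusted p under 0.05 was reached by 4 of the 35 and by 4.21% of all genes. DESeq2 also called 0 of the 35, against 0.109% of all genes, and so did limma, which called 0 of all genes. The median log2 fold change was -0.36 (3 positive, 32 negative), against -0.02 over all genes, and the 46 other proximal tubule genes had a median of -0.27. Kap had -2.31 (SE 0.78), Slc7a13 -1.93 (SE 0.55) and Cyp2e1 -1.65 (SE 0.62), each with an edgeR adjusted p of 0.967. Without db/db puerarin 2 and 3 these values were -1.45, -1.60 and -1.47, and edgeR called 0 of the 35 and 0% of all genes, with 0 of the 35 and 5.53% of all genes under an unadjusted p of 0.05. DESeq2 without them called 0 of the 35, against 0.255% of all genes. In the edgeR fit without db/db puerarin 2 and 3 all 35 genes had negative values, with a median of -1.21. Slc6a19, at -1.66, was then below the 3 genes, so they no longer had the most negative values. All db/db puerarin libraries were below all db/db vehicle libraries for 2 of the 35 genes, Slc7a13 and Cndp2, against 3.23% of all genes separated in either direction and 1.72% in this one. With S144 as the one puerarin library, 6 of the 35 lay below all db/db vehicle libraries, against 49.6% of all genes separated in either direction and 26.1% in this one.

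The sign of that median depended on single libraries as well. It was 0.03 with db/db puerarin S144 left out, 0.39 with db/db vehicle 3 left out, and -1.21 with db/db puerarin 2 and 3 left out. The 2 name forms also went different ways. In the group-tag libraries 25 of 35 genes were higher with puerarin (median 0.17), and in the S-number libraries, where S144 stood alone for puerarin, 35 of 35 were lower (median -0.95). The test between the forms called 0 of the 35 genes here too, against 0.00728% of all genes. The loop and distal tubule sum differed with the same libraries, at 3150 CPM in S144 against 10598 and 10881 CPM in db/db puerarin 2 and 3, and its part in the result was not tested.

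In db/db puerarin against db/m vehicle, which differ in genotype and treatment together, no gene passed by edgeR, and Cndp2, Cyp4b1 and Slc7a13 had the smallest adjusted p. edgeR called 0 of the 35, against 0.182% of all genes, with 5 of the 35 and 10.3% of all genes under an unadjusted p of 0.05. DESeq2 called 4, all lower in db/db puerarin (Cndp2, Cyp4b1, Kap and Slc7a13), against 2.16% of all genes in either direction and 0.83% lower. By limma 1 was called, also lower, against 15 higher and 7 lower of all 13734 genes. Cndp2 differed by -1.63 on the log2 scale (SE 0.27, edgeR adjusted p = 0.0551), Cyp4b1 by -1.0 (SE 0.19, edgeR adjusted p = 0.0748), Slc7a13 -2.99 (SE 0.57, edgeR adjusted p = 0.076) and Kap -3.39 (SE 0.82, edgeR adjusted p = 0.156). Of the other genes known to be higher in male mouse kidney, the adjusted p by edgeR was 0.287 for Cyp2e1 and 0.972 for Akr1c21. The median over the 35 was -0.00 (17 positive, 18 negative), against -0.01 over all genes. Every db/db puerarin library was below every db/m vehicle library for 5 genes, Kap, Slc7a13, Cyp2e1, Keg1 and Cndp2, against 7.65% of all genes separated in either direction and 3.92% in this one. With S144 as the one puerarin library this held for 7 of the 35, against 44.3% of all genes separated in either direction and 23.4% in this one. The test between the forms called 0 of the 35, against 0.051% of all genes. Both comparisons with db/m mice share the 4 db/m vehicle libraries. Without db/db puerarin 2 and 3 the median was -0.84 and edgeR called 0 of the 35 and 0% of all genes, with 3 of the 35 and 6.52% of all genes under an unadjusted p of 0.05. The values were then -1.70 for Cndp2, -0.83 for Cyp4b1, -2.69 for Slc7a13 and -2.67 for Kap, and DESeq2 called 2, Cndp2 and Slc7a13, against 0.801% of all genes.

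Of the 5 genes known to be higher in male mouse kidney, Kap, Slc7a13, Cyp2e1 and Cyp4b1 were lowest in db/db puerarin 2 and 3, the libraries with Xist, whereas Akr1c21 was not, at 54.4 and 71.8 CPM there. The 5 genes summed to 567, 269 and 239 CPM in db/db puerarin S144, 2 and 3. They summed to 674, 1036.5, 347 and 1149.9 CPM in db/db vehicle S152, S153, 1 and 3, and to 4067, 1740.3, 612 and 929.9 CPM in db/m vehicle S184, S185, 2 and 3. The 2 libraries with Xist had the lowest sums of the 11, while their 6 genes of the early proximal tubule, at 957 and 1047 CPM, lay above those of 5 other libraries or more. Relative to the 46 other proximal tubule genes of the same library, the log2 level of Kap was -2.58 and -3.88 in db/db puerarin 2 and 3 and 0.09 in S144. In db/db vehicle it ran from -0.42 to 0.42 and in db/m vehicle from 0.84 to 2.39. Slc7a13 was at -1.75 and -3.92 in db/db puerarin 2 and 3 and at -0.36 in S144, against -0.37 to 0.46 in db/db vehicle and 1.17 to 1.71 in db/m vehicle. On this scale S144 lay within the range of db/db vehicle for Kap and just inside its lower end for Slc7a13. In each gene the db/db vehicle libraries lay below the db/m vehicle libraries on this scale. By CPM, S144 was within the range of db/db vehicle for Kap but below all its libraries for Slc7a13, at 9.38 against 11.03 CPM or more.

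**Figure D3:**
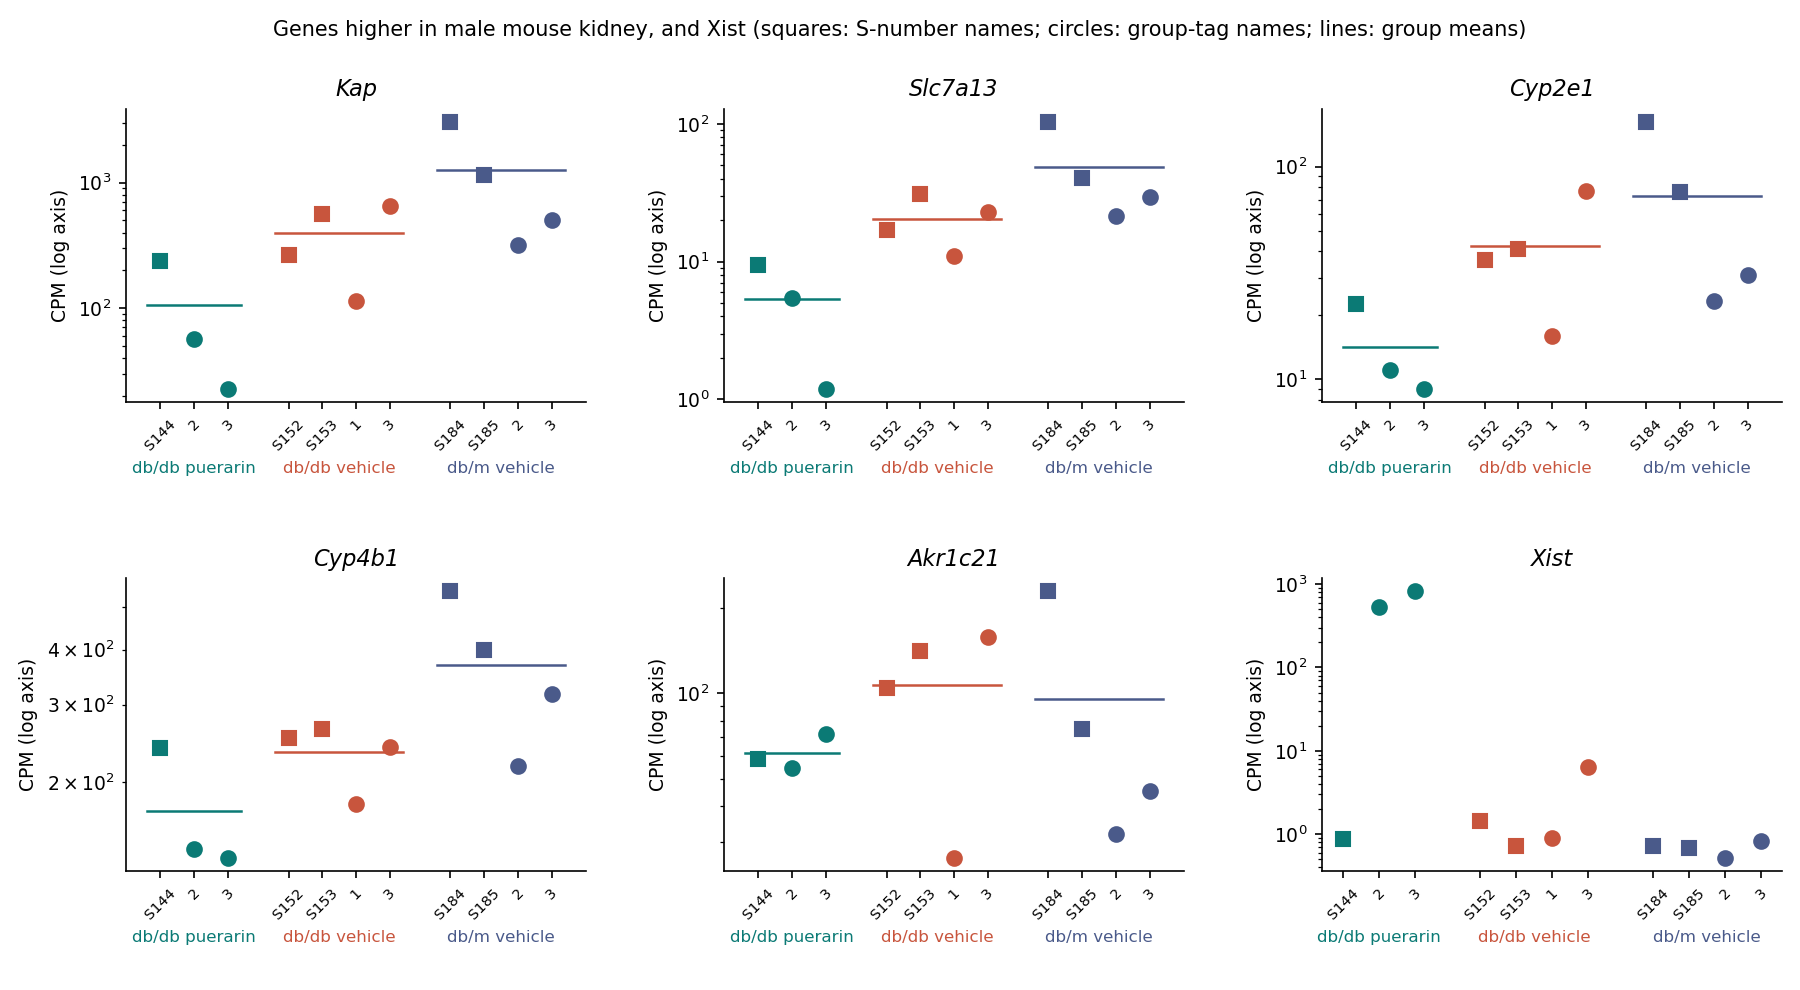
CPM on log axes in each library for 5 proximal tubule genes that are higher in male mouse kidney, and for Xist; lines are group means. For Kap, Slc7a13, Cyp2e1 and Cyp4b1 the 2 libraries with Xist at 528.5 and 819 CPM are the 2 lowest of the 11, while for Akr1c21 they lie among the rest.

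To see which genes departed from the shared movement, the edgeR model was fitted with 1 more term, the mean log2 level of the 46 other proximal tubule genes in each library. That term was added after the values were seen. Relative to these 46 genes the spread of the 35 narrowed: the median SD of log2 CPM over the 11 libraries was 0.819 as measured and 0.393 relative to them, smaller for 32 of 35 genes and under 0.3 for 11. The SD was larger for Slc7a8, Cyp4b1 and Cndp2. With the term, edgeR called 6 of the 35 (17.1%) in db/db vehicle against db/m vehicle, 2 higher and 4 lower, against 1.42% of all genes, 0.808% higher and 0.612% lower. The term is itself a proximal tubule level, so the share over all genes is not that of like genes. This holds for every fit with the term below. Pck1 rose in db/db vehicle by 1.18 on the log2 scale (SE 0.14, edgeR adjusted p = 0.00902) and Gsta2 by 0.71 (SE 0.14, edgeR adjusted p = 0.0356). Keg1 fell by 1.11 (SE 0.11, edgeR adjusted p = 0.00344), Cndp2 by 1.09 (SE 0.18, edgeR adjusted p = 0.0239), Cyp4b1 by 0.65 (SE 0.14, edgeR adjusted p = 0.0469) and Ggt1 by 0.52 (SE 0.10, edgeR adjusted p = 0.0407). Calls were repeated with each library left out in turn: of 11 such fits Keg1 passed in 11, Pck1 in 10, Cndp2 in 8, Gsta2 and Cyp4b1 in 3 each and Ggt1 in 1. Leaving out db/m vehicle S184 left 1 call, leaving out S152 or S153 of db/db vehicle left 2, and leaving out library 1 of db/db vehicle or library 3 or S185 of db/m vehicle left 3. Over all genes 18 were higher and 7 lower past the test without db/m vehicle S184, the fewest. The most were 125 higher and 80 lower, without db/m vehicle 3, against 111 and 84 with all 11 libraries.

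The levels relative to the 46 genes show the called genes library by library. On this scale 6 of the 35 did not overlap between db/db vehicle and db/m vehicle (Pck1, Hnf4a, Kap, Slc7a13, Ggt1 and Keg1), against 0.481% of all genes. Between db/db puerarin and db/m vehicle 9 did not overlap, against 1.41% of all genes, and with S144 as the one puerarin library 10, against 18.1%. Between db/db puerarin and db/db vehicle only Hnf4a did not overlap, against 0.313% of all genes, and with S144 as the one puerarin library 6 genes, against 7.85%. The scale subtracts a proximal tubule level from every gene, so the share over all genes is not that of like genes. Pck1 was at 0.44, 0.42 and 0.30 in db/db puerarin S144, 2 and 3, at 0.67, 0.61, -0.08 and 0.70 in db/db vehicle, and at -0.62, -1.10, -0.71 and -0.63 in db/m vehicle, on the log2 scale. All 7 db/db libraries were thus above all 4 db/m libraries. Keg1 was at -0.57, -0.85 and -0.44 in db/db puerarin, at -0.13, -0.09, -0.71 and -0.22 in db/db vehicle, and at 1.11, 0.58, 0.58 and 0.75 in db/m vehicle. It was lower in every db/db library than in every db/m library. Cndp2 was at -0.40, -0.70 and -1.15 in db/db puerarin, at -0.67, -0.59, 0.77 and -0.85 in db/db vehicle, and at 0.50, 0.66, 1.15 and 1.28 in db/m vehicle. On this relative scale db/db vehicle 1 joined the db/m libraries for Cndp2, whereas its CPM did not. On the relative scale that library was also the highest for Slc7a8 (1.23) and Anpep (0.83), but by CPM it was not. Its Slc7a8, at 66.44 CPM, lay within the db/db vehicle range of 53.12 to 83.03 CPM. Its Anpep, at 12.97 CPM, was the lowest of that group. The subtracted level of the 46 genes was lowest in this library, at -0.97. It also had the highest myeloid sum, 852 CPM over 10 genes against 78.1 to 227 CPM in the other libraries. The part of myeloid RNA in the relative values was not tested.

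Against db/m vehicle, db/db puerarin differed in 11 of the 35 genes with the term (31.4%), 3 higher and 8 lower, against 2.36% of all genes, 1.48% higher and 0.881% lower. Gsta2 rose by 1.25 (SE 0.15, edgeR adjusted p = 0.00359), Pck1 by 1.13 (SE 0.15, edgeR adjusted p = 0.00539) and Slc4a4 by 0.62 (SE 0.13, edgeR adjusted p = 0.0316) on the log2 scale. Lower in db/db puerarin were Keg1 (-1.36, edgeR adjusted p = 0.00232), Cndp2 (-1.63, adjusted p = 0.00439), Ggt1 (-0.85, adjusted p = 0.00602), Cyp4b1 (-1.0, adjusted p = 0.00853), Slc7a13 (-2.91, adjusted p = 0.00985), Cyp2e1 (-1.92, adjusted p = 0.0231), Kap (-3.16, adjusted p = 0.0242) and Acsm2 (-0.77, adjusted p = 0.0318). The count was 7 without db/db puerarin 2, where over all genes 85 were higher and 55 lower past the test. It was also 7 without db/db puerarin 3, where over all genes 129 were higher and 52 lower. Without both, the libraries that carry Xist, 0 of the 35 passed in this comparison, where S144 alone then stood for puerarin and was taken to vary like the other libraries; 0% of all genes passed, and an unadjusted p under 0.05 was reached by 9 of the 35 and 8.21% of all genes. The values without them were 0.87 for Gsta2, 1.38 for Pck1 and 0.38 for Slc4a4, and -1.27 for Keg1, -1.36 for Cndp2 and -0.96 for Ggt1. They were -0.60 for Cyp4b1, -2.04 for Slc7a13, -1.06 for Cyp2e1, -1.65 for Kap and -0.39 for Acsm2. Each had the sign it had with all 11 libraries, and the values of Slc4a4, Cyp4b1, Cyp2e1, Kap and Acsm2 were smaller by over 1.5 times. For db/db puerarin against db/db vehicle edgeR called 0 of the 35 with the term, and 0% of all genes, while an unadjusted p under 0.05 was reached by 10 of the 35 and 9.11% of all genes. Kap, Slc7a13 and Cyp2e1 had -1.70, -1.72 and -1.19 there, and 0.09, -0.78 and -0.18 without db/db puerarin 2 and 3, where 0% of all genes passed as well.

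With those 2 libraries left out, the genotype comparison with the term called 7 of the 35 (20%), against 0.815% of all genes. Kap (-1.74, edgeR adjusted p = 0.0259) and Slc7a13 (-1.26, edgeR adjusted p = 0.0271) then fell in db/db vehicle, beside Keg1, Cndp2 and Cyp4b1, and Pck1 and Gsta2 rose. With the term over all 11 libraries Kap had -1.46 (edgeR adjusted p = 0.229) and Slc7a13 -1.20 (edgeR adjusted p = 0.163). Each passed in 1 of the 11 fits with 1 library left out. All 8 vehicle libraries had Xist of at most 6.47 CPM and Ddx3y of at least 50.3 CPM. The remaining 29 genes, Hnf4a (0.33, SE 0.07, edgeR adjusted p = 0.0605), Lrp2 (-0.17, SE 0.11), Cubn (-0.03, SE 0.10) and Slc5a2 (0.00, SE 0.14) among them, did not pass with the term over all 11 libraries.

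**Figure D4:**
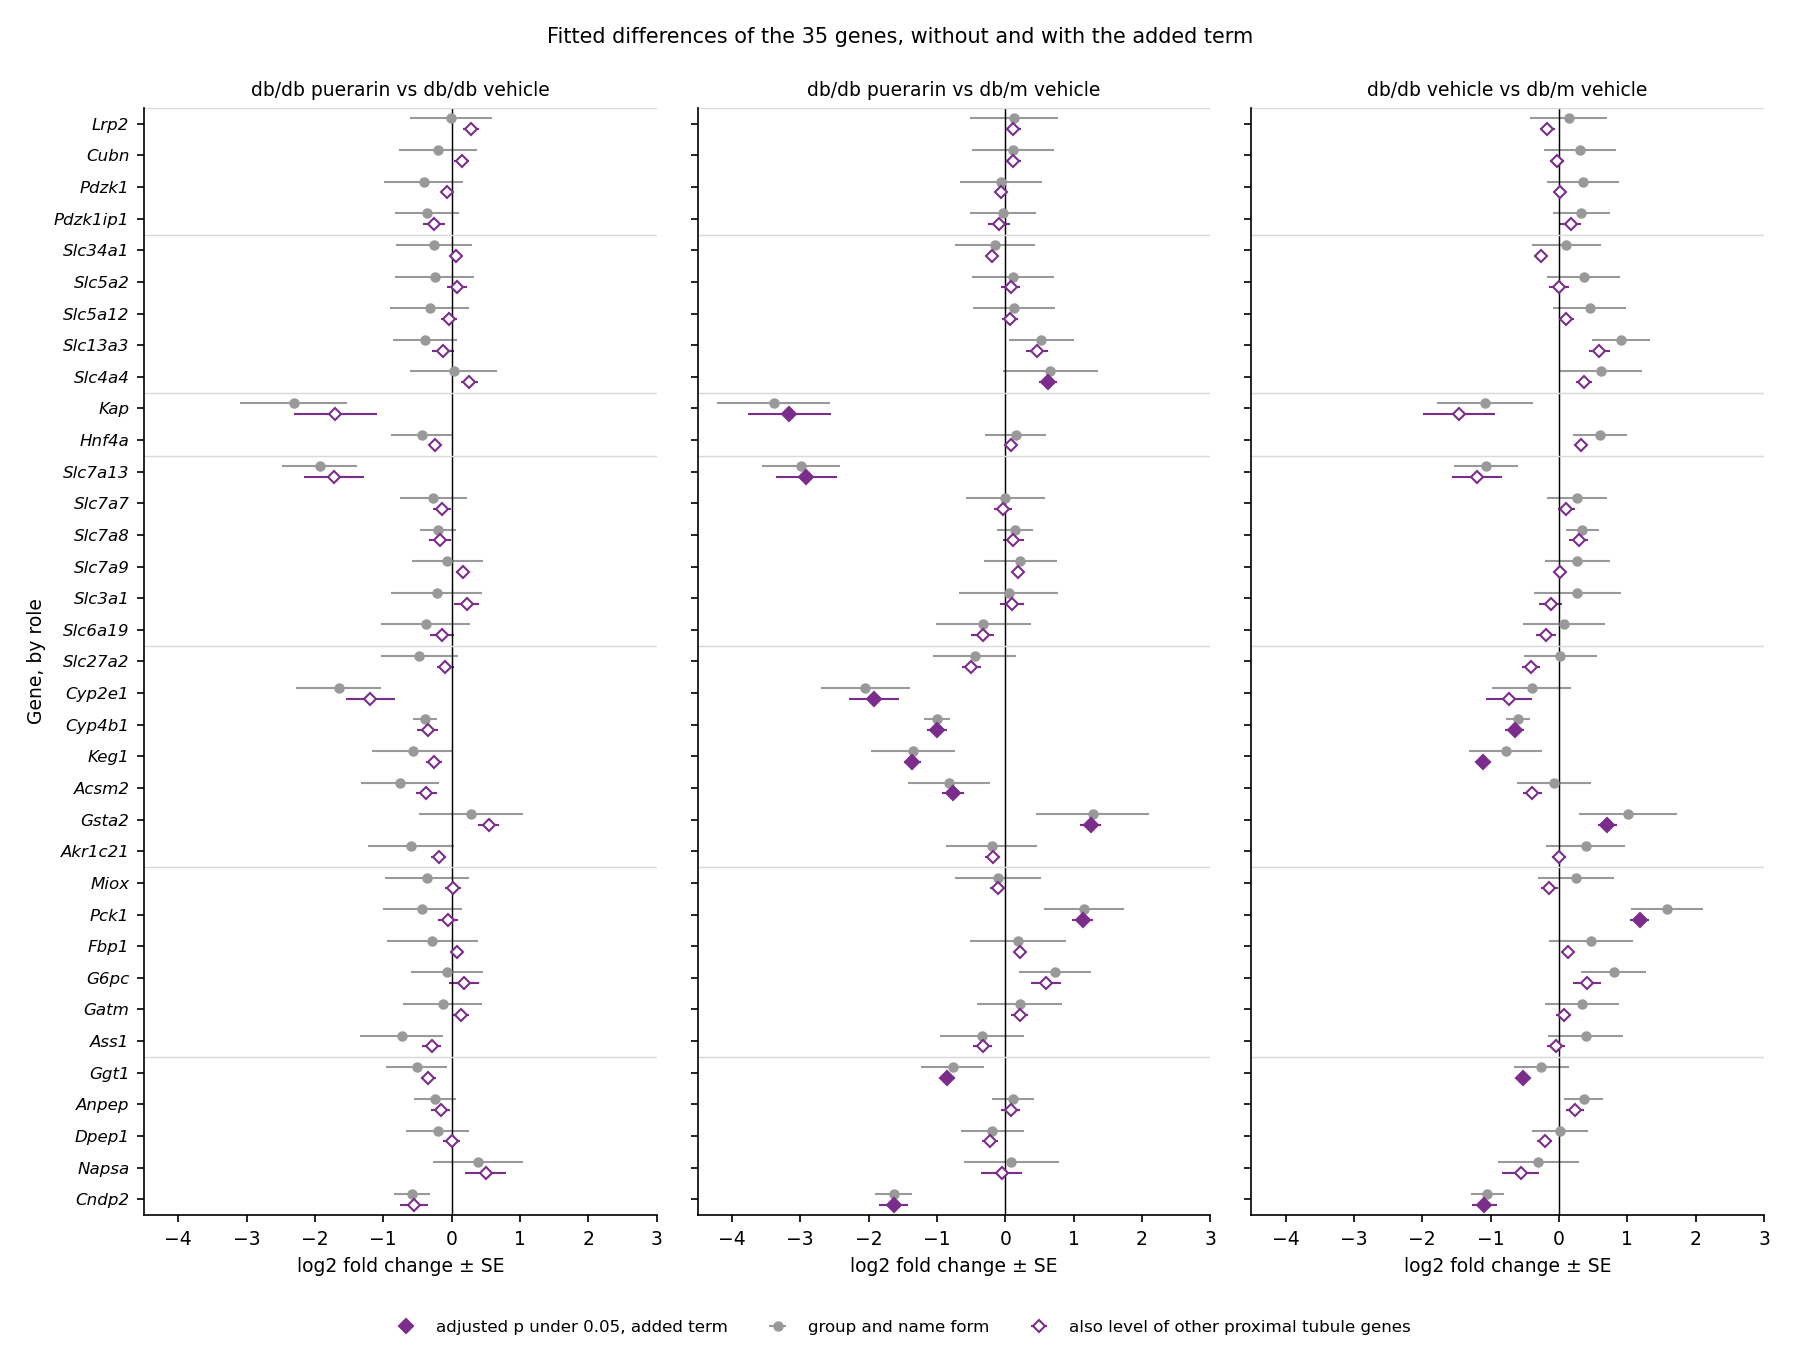
Fitted log2 fold changes of the 35 genes with their SE in the 3 group comparisons, without (grey circles) and with (purple diamonds) the level of 46 other proximal tubule genes as a term; filled diamonds passed an adjusted p of 0.05. With the term the error bars shorten for most genes, and Pck1, Gsta2, Keg1, Cndp2, Cyp4b1 and Ggt1 passed in both comparisons with db/m vehicle.

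Between the name forms, group-tag against S-number with group held constant, proximal tubule genes were not separated, while genes of later segments were. edgeR called 1 of the 35, Cyp4b1, with a log2 difference of -0.62 (SE 0.14, edgeR adjusted p = 0.034), against 6.97% of all genes in either direction and 1.32% lower. Of the 35, DESeq2 called only Cyp4b1 as well, against 13.7% of all genes in either direction and 3.83% lower. The median of the 35 was -0.51 (4 positive, 31 negative), against -0.02 over all genes, and 0 of 35 had non-overlapping forms, against 6.71% of all genes. Kap had -1.62 (SE 0.60, edgeR adjusted p = 0.128), Slc7a13 -1.12 (SE 0.41, edgeR adjusted p = 0.123), and Pdzk1ip1 and Slc7a8 had 0.31 and 0.39, the 2 highest values. Of the loop and distal tubule genes 7 of 10 were higher in group-tag libraries past the test (median 1.28), and of the collecting duct genes 5 of 10 (median 1.42). Of the 46 other proximal tubule genes edgeR called 0, with 5 under an unadjusted p of 0.05, and the median was -0.32. With the level of those 46 genes as a term 11 of the 35 passed (31.4%), 4 higher and 7 lower, against 26.7% of all genes, 15.1% higher and 11.6% lower, a share near that background. Without db/db puerarin 2 and 3 that fit called 2, Akr1c21 and Gsta2, both lower, against 12.8% of all genes. By edgeR without the term, the call of Cyp4b1 was lost when any 1 of 8 libraries was left out: all 3 of db/db puerarin, db/db vehicle S152 and S153, and db/m vehicle S185, 2 and 3. It was also lost without db/db puerarin 2 and 3 together, where edgeR called 0 of the 35, against 0.59% of all genes, with 2 of the 35 and 16.5% of all genes under an unadjusted p of 0.05, and DESeq2 called 0, against 6.44% of all genes. The count was 2 without db/m vehicle S184, with 1121 higher and 371 lower over all genes. It was 3 without db/db vehicle 3, with 276 higher and 41 lower over all genes.

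**Figure D5:**
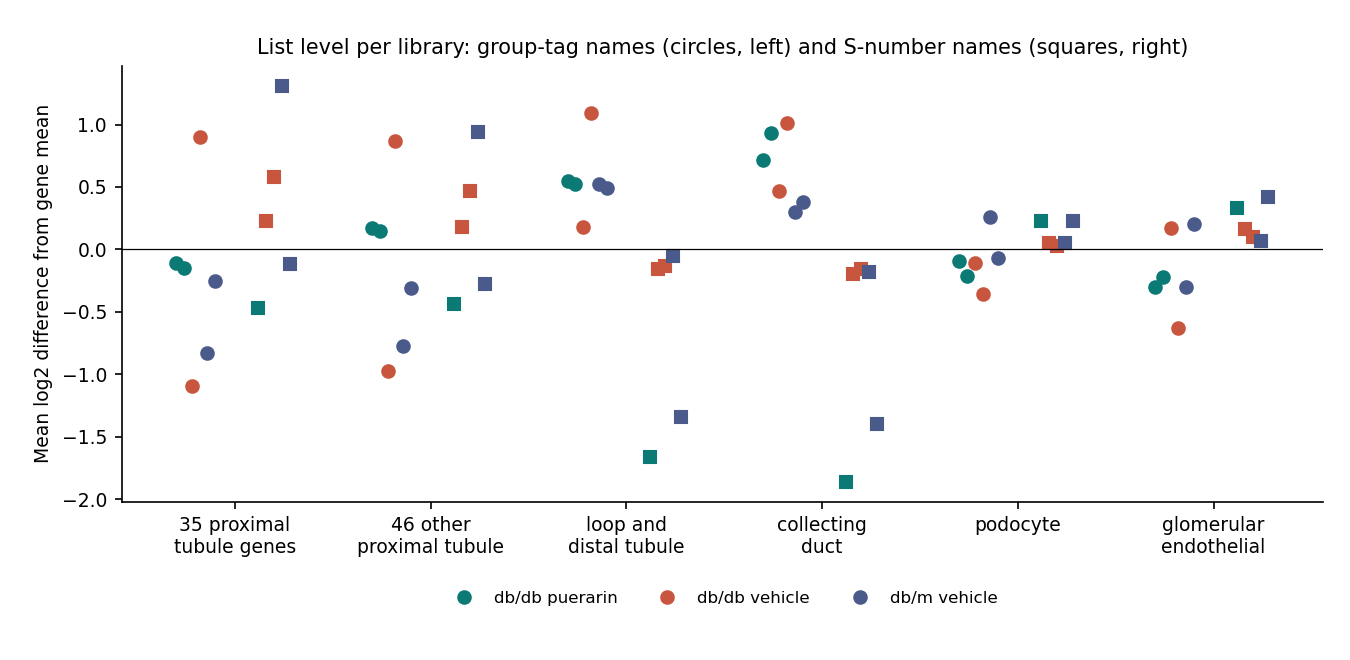
Mean log2 CPM of each gene list minus its mean over the 11 libraries, for group-tag (circles, left) and S-number libraries (squares, right), coloured by group. The 35 proximal tubule genes overlap between the forms, from -1.09 to 1.31, while all 6 group-tag libraries lie above all 5 S-number libraries for the loop and distal tubule and collecting duct lists.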

How the data were processed

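Glomerular RNA of 11 libraries was sequenced. Counts per transcript were deposited by the authors as 1 table of 22320 RefSeq transcripts. BWA, limma and the mouse build mm10 are named, without versions, in the submitters' processing notes, and nothing in the sources used here gives the strand. The authors also deposited log2 values, which equal the log2 of the count plus a constant per library. The 4 count columns of no sample were not used. The 13 blank cells were read as 0, 50 symbols turned into dates were restored, and transcripts were summed per symbol to 13734 genes; the 35 members held 51 transcripts.

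Tests were run in R 4.3.3 with edgeR 4.0.16 (TMM factors, quasi-likelihood test, terms for group and name form, 7 residual degrees of freedom, no gene fell to the filter of 1 count in 3 libraries). P-values were adjusted by Benjamini-Hochberg over 13734 genes, with 0.05 as the threshold. The lowest count of any member in any library was 46, and totals of 35369703 to 44244460 set the precision. DESeq2 1.42.0, limma 3.58.1 on the authors' log2 values, other scaling factors, filters and library subsets were alternatives. The fit with the level of 46 other proximal tubule genes, the test between name forms the fit without db/db vehicle 3 and db/m vehicle S184 and DESeq2 without db/db puerarin 2 and 3 were chosen after seeing the data. The fitting code was tested on simulated data.

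The members, the lists and the 20 genes named with their values in every library were chosen with earlier results of these data known. The rule took 10 genes across the roles (Lrp2, Cubn, Slc34a1, Slc5a2, Slc7a13, Kap, Cyp2e1, Hnf4a, Pck1 and Miox), any member past the test, and in each comparison the 3 per direction with the smallest unadjusted p. Keg1, Acsm2 and Akr1c21, with values beyond a range or fold change, were chosen after their values were seen. RefSeq promoter windows were of build GRCm38.p6.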

Additional observations from a re-analysis of the deposited data

Results flagged for a closer look

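In db/m vehicle, 2 values of library S184 stood far from the other 3 libraries of that group. G6pc was at 85.76 CPM in S184, with 35.7, 32.6 and 41.6 CPM in S185, 2 and 3, a gap of 0.831 of the group's range. Gsta2 was at 39.05 CPM in S184, with 8.25, 4.17 and 6.12 CPM in S185, 2 and 3, a gap of 0.883 of the range. They were the 2 values past the limit of Dixon's test among 44 groups of 4 libraries tested, of which chance alone passes about 5%. The same library had the highest summed level of the 35 genes, and the part of that level in both values was not tested.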

How the results depend on the processing

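Proximal tubule genes were a minor share of each library and moved with single libraries, so medians over the 35 genes turned sign easily, and the cause of each change below was not tested. In db/db vehicle against db/m vehicle the count called was 2 with DESeq2 and 6 with the level of the 46 other proximal tubule genes as a term, against 0; the median was -0.54 without db/db vehicle 3 and db/m vehicle S185, against 0.27. In db/db puerarin against db/db vehicle every alternative called 0, and the median was -1.21 without db/db puerarin 2 and 3 and 0.53 without db/db vehicle 3 and db/m vehicle S185, against -0.36. In db/db puerarin against db/m vehicle the count was 4 with DESeq2, 11 with the term, and 1 with library totals only, with limma and without db/db vehicle 3 and db/m vehicle S184, against 0. Without db/db puerarin 2 and 3 its median was -0.84 (-0.85 with DESeq2), and its count was 0 with the term and 2 with DESeq2, which without them also called 1 in db/db vehicle against db/m vehicle and 0 between the forms. Between the name forms the count was 11 with the term, 0 without db/db puerarin 2 and 3 (2 with the term), and 3 without db/db vehicle 3 and either S184 or S185, against 1; Hnf4a had 0.23 with the term, against -0.04. Leaving out 1 library at a time gave 0 to 2 calls in db/db puerarin against db/m vehicle, 0 to 3 between the forms, and with the term 1 to 7 in db/db vehicle against db/m vehicle, 7 to 11 in db/db puerarin against db/m vehicle and 3 to 15 between the forms. Counting the most abundant transcript alone gave a summed level of 5374.9 CPM in db/db puerarin 3, against 4649 CPM.

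The group-tag numbers 2 and 3 occur in db/db puerarin and db/m vehicle, and number 3 in db/db vehicle as well. Over genes the differences between libraries 2 and 3 of db/db puerarin and of db/m vehicle correlated by 0.0563. A single correlation cannot tell whether libraries of the same number were handled together. With a replicate block in place of name form 0 of the 35 genes were called in each group comparison, with medians of 0.40 in db/db vehicle against db/m vehicle, -0.53 in db/db puerarin against db/db vehicle and -0.03 in db/db puerarin against db/m vehicle. Over all genes the block called 18 higher and 38 lower in db/db vehicle against db/m vehicle, where name form gave 0 and 6, and 30 higher and 19 lower in db/db puerarin against db/m vehicle, where name form gave 20 and 5.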

Other observations

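Genes that proximal tubule cells switch on after injury were listed as well, and 5 of 9 were measured (Vcam1, Spp1, Cp, Krt8 and Krt18, not Havcr1, Lcn2, Sox9 and Krt20). Cp, ceruloplasmin, was at 212.6, 139.3 and 161.6 CPM in db/db puerarin S144, 2 and 3, at 198.8, 172.6, 210.3 and 114.0 CPM in db/db vehicle S152, S153, 1 and 3, and at 85.69, 127.6, 80.88 and 126.1 CPM in db/m vehicle S184, S185, 2 and 3. Unlike the 35 genes, it was not high in db/m vehicle S184 and not low in db/db vehicle 1. Spp1, osteopontin, was at 500.4, 2293 and 2198 CPM in db/db puerarin, at 1304, 1400, 1466 and 2255 CPM in db/db vehicle, and at 1207, 363, 1127 and 1229 CPM in db/m vehicle, and its low values in S144 and S185 fell in the libraries lowest for the loop and distal tubule list. Krt8 and Krt18 were also lowest in these 2 libraries, at 8.69 and 2.85 CPM in S144 and at 9.74 and 4.36 CPM in S185. Between the name forms edgeR called 1 of the 5, Krt18, higher in group-tag libraries (edgeR adjusted p = 0.0407), against 6.97% of all genes in either direction. All 5 genes had positive values in db/db vehicle against db/m vehicle (median 0.72), and edgeR called 0 of them, against 0.0437% of all genes, with a smallest adjusted p of 0.274 for Cp. An unadjusted p under 0.05 was reached by 2 of the 5 and by 10.3% of all genes. In db/db puerarin against db/db vehicle the median was -0.31 and edgeR called 0, as it did of all genes, with 0 of the 5 and 4.21% of all genes under an unadjusted p of 0.05.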
